A study of Mus musculus with 24 samples.

Results

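The genes described here are the 35 enzymes, regulators and carriers of cholesterol and fatty acid synthesis on a whole-genome mouse expression array, followed in 2 tissues, liver and duodenum, of B6 (C57BL/6) and D2 (DBA/2) mice that were either wild-type or Hfe-/-. They were taken from a list of gene symbols, and for each gene the brightest of its probe sets, by mean log2 signal over all arrays, was read. All 35 had a probe set that passed the filter on low signal, among 12956 genes that did. There were 24 arrays in 8 groups of 3, all from male mice of 7 weeks: B6 wild-type, B6 Hfe-/-, D2 wild-type and D2 Hfe-/- mice, in liver and in duodenum. The knockout mice lack Hfe in all tissues and were bred in the study's own facility, whereas the wild-type mice were purchased, so that genotype and origin cannot be told apart. All mice were fasted before they were killed. An array is named here by strain, genotype and its replicate number, so that B6 WT 1 is the first B6 wild-type array and D2 KO 2 the second D2 knockout array of a tissue.

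Animal cells make cholesterol from acetyl-CoA through mevalonate, isoprenoids, squalene and lanosterol, and they make fatty acids from the same precursor by carboxylation to malonyl-CoA, chain extension by fatty acid synthase, and later elongation and desaturation. The transcription factors SREBP-2 (Srebf2) and SREBP-1 (Srebf1) switch on most of these genes when they are released from the endoplasmic reticulum, where INSIG proteins hold them back while sterols are plentiful, and ChREBP (Mlxipl) adds a response to glucose. The liver is the main site of both pathways, whose activity falls on fasting and rises on refeeding. The question addressed by the knockout comparisons was which genes respond to Hfe deficiency in strains that load iron to different extents, and the strain comparison asked which genes differ before any disruption.

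Signals are MAS5 values scaled to a trimmed mean of 100 on every array, and the median probe set of an array lay between 15.7 and 23.4. Differences are log2 values with their standard error from limma, with 3 mice per group, and adjusted p values are over all 28061 probe sets kept. A knockout effect or an interaction is called where its adjusted p does not exceed 0.1, and a strain or tissue difference where it does not exceed 0.01. Hfe itself was at 674, 685 and 691 on the B6 wild-type liver arrays and at 89.2, 86.2 and 98.8 on the B6 knockout arrays, and at 437, 434 and 515 against 82.9, 70.4 and 82.9 in D2 liver. In duodenum it was at 76.6 to 105 in wild-type and 15.7 to 45.1 in knockout mice, so that every array matched its labelled genotype. Alb, a hepatocyte marker, was at 9624 to 17062 in liver and at 21.3 or less in duodenum. The summed signal of 6 hepatocyte markers was 56891 to 82621 in liver and 3317 to 4485 in duodenum. That of 3 enterocyte markers was 1164 to 2351 in liver and 17778 to 21012 in duodenum. The 8 pancreatic acinar markers, which duodenum should lack, summed to 865 on duodenum array D2 KO 2 and 1970.0 on D2 KO 3, against 8934 to 73482 on the other 10. In a tissue, a change in the share of a cell type cannot be told apart from a change within its cells.

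The genes that carried a knockout call were all in liver, and they were few. In D2 liver 2 of the 35 genes, Hsd17b7 and Fads2, were downregulated and none was upregulated by the probe set read for each gene, against 3.31% of all genes called in either direction, 1.73% higher and 1.58% lower. In B6 liver only Hmgcs1 was called, and it was upregulated, where 1.15% of all genes were called in either direction, 0.633% higher and 0.517% lower. No gene of the list was called for an interaction of strain and knockout in liver. Over all genes 0.224% were, 0.131% with a higher and 0.0926% with a lower effect in D2. An unadjusted p under 0.05 was found for 4 of the 35 genes, against 10.3% of all genes. The 250 bases before the RefSeq start of Hmgcs1, Hsd17b7 and Fads2 (build GRCm38.p6) are shown because control elements of sterol-responsive genes can lie in this stretch. Capitals mark the sterol regulatory element core TCACNCCAC, the NF-Y box CCAAT and the E-box CACGTG, read on either strand, so that ATTGG is a CCAAT on the other strand.
Hmgcs1, chr13:119690101-119690350, plus strand: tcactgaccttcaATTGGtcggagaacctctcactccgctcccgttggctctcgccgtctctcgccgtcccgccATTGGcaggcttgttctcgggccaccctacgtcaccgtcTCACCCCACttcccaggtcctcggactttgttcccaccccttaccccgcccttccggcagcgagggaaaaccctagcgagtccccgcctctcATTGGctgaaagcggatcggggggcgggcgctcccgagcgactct
Hsd17b7, chr1:169969206-169969455, minus strand: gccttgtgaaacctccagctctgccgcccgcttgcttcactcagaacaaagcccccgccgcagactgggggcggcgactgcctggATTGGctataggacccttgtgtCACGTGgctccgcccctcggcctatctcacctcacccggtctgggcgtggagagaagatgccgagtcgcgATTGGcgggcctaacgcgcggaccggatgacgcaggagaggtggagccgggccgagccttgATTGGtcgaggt
Fads2, chr19:10101504-10101753, minus strand: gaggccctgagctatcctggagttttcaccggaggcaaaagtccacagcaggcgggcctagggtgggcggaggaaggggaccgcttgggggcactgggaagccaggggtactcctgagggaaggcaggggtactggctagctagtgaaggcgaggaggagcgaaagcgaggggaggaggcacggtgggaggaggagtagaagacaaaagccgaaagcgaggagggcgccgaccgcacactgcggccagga

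The Hmgcs1 window held the sterol regulatory element core once, starting 137 bases before the gene's start, and 3 NF-Y boxes. That of Hsd17b7 held 3 NF-Y boxes and an E-box starting 143 bases before the start. No match to any of these letters was found in the Fads2 window. Over the 300-base windows of all 27025 genes in the table, which reach past the start, the element core was present in 1.44%, the NF-Y box in 41.1% and the E-box in 8.09%. Of the 29 members with a window, 2 (Hmgcs1 and Mlxipl) held the core, 26 an NF-Y box and 6 an E-box. None of the matches overlapped another in the sequences shown.

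Hsd17b7, a ketosteroid reductase of the demethylation steps that lead from lanosterol to cholesterol, was at 436, 430.0 and 383 in D2 wild-type liver and at 310.0, 219 and 199.7 in D2 knockout liver. All 3 knockout arrays were below all 3 wild-type arrays, with D2 KO 1 closest to them. The difference was -0.80 ± 0.18, or 1.74-fold lower, with an adjusted p of 0.0466. In B6 liver the gene was at 346, 385 and 350.2 in wild-type and 396, 233 and 379 in knockout mice, groups that overlapped (-0.14 ± 0.18, adjusted p = 0.836). The strain difference of the effect was -0.66 ± 0.26 and was not called (adjusted p = 0.416). Of its 3 probe sets kept, 2 were called in D2 liver and the other gave -0.27 ± 0.17. Successive arrays hybridized at most 15 minutes apart are treated here as 1 hybridization run. Within the single run that held D2 arrays of both genotypes, the 3 knockout arrays were 0.68 lower in log2 than the wild-type array, and with the run as a block the call was lost (-0.68 ± 0.21, adjusted p = 0.32). It was also lost without D2 WT 1, D2 WT 2, D2 KO 2 or D2 KO 3, where the difference was -0.67 to -0.78.

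Fads2, the delta-6 desaturase that starts the conversion of linoleic and alpha-linolenic acid to longer polyunsaturated fatty acids, was at 1767, 1595 and 1628 in D2 wild-type liver and at 1454, 1070.1 and 990.3 in D2 knockout liver. The groups did not overlap, and D2 KO 1 was again the knockout array nearest to wild-type. The difference was -0.52 ± 0.12, or 1.44-fold lower, with an adjusted p of 0.0501. In B6 liver Fads2 was at 1636, 1689 and 1667 in wild-type and at 1527, 1497 and 1247 in knockout mice. These groups did not overlap either, but the difference of -0.23 ± 0.12 was not called (adjusted p = 0.499). A second probe set of Fads2 was called in D2 liver (-0.79 ± 0.18, adjusted p = 0.0482), and the third gave -0.49 ± 0.19. The D2 call was lost with the run as a block (-0.49 ± 0.18, adjusted p = 0.45) and without D2 WT 1, 2 or 3 or D2 KO 2 or 3, each left out alone, where the difference was -0.41 to -0.55.

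Hmgcs1, the cytosolic HMG-CoA synthase that makes the substrate of the rate-limiting step of cholesterol synthesis, was at 1220.2, 1036 and 947 in B6 wild-type liver and at 1721, 1595 and 1524 in B6 knockout liver. Every knockout array was above every wild-type array. The difference was 0.60 ± 0.14, or 1.52-fold higher, with an adjusted p of 0.080. In D2 liver the same probe set was at 1141, 1105 and 944 in wild-type and 951, 1262 and 819 in knockout mice, which overlapped, and the difference of -0.09 ± 0.14 had a 95% interval of -0.39 to 0.20. The effect in D2 minus that in B6 was -0.69 ± 0.20 and was not called (adjusted p = 0.226). Of 5 probe sets kept for Hmgcs1, 3 were called as higher in B6 knockout liver, and the other 2 gave 0.58 ± 0.16 and 1.29 ± 0.91. B6 KO 1, the only knockout array in the run of the B6 wild-type arrays, was 0.70 above them in log2. The call was lost with the run as a block (0.66 ± 0.19, adjusted p = 0.273), with the mean of all probe sets (0.75 ± 0.21, adjusted p = 0.154), and when B6 WT 2, B6 WT 3, any B6 knockout array, D2 WT 1 or D2 WT 2 was left out (adjusted p from 0.11 to 0.287). Hmgcs1 lies on chromosome 13, as do Idi1 of the list and Hfe itself.

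**Figure D1:**
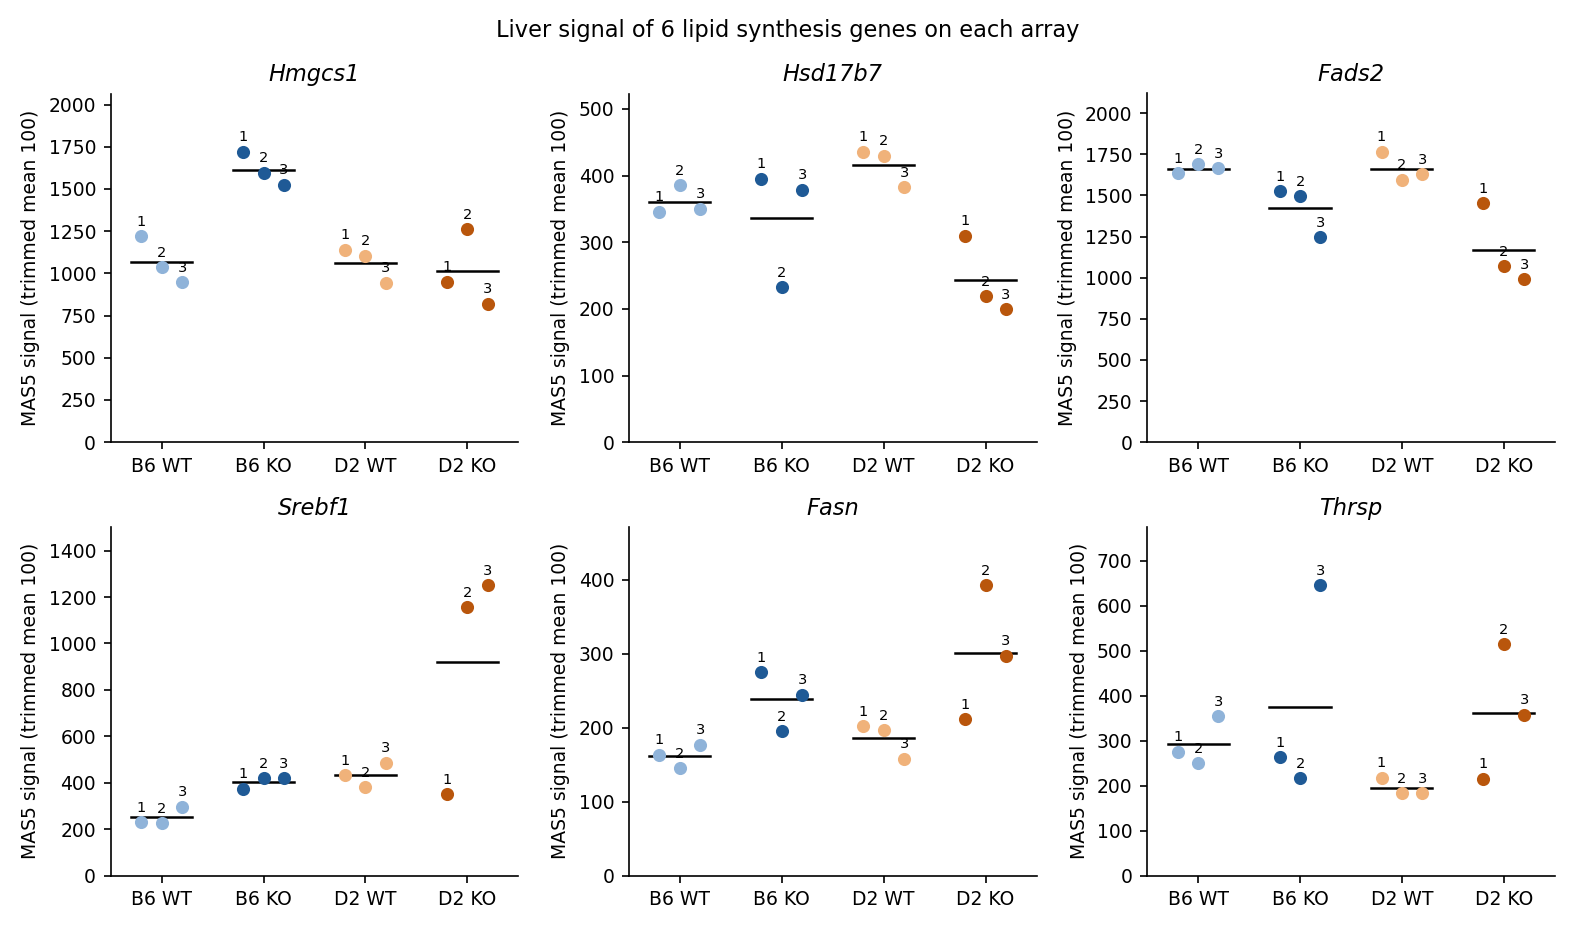
MAS5 signal in liver (y axis, linear from 0) of Hmgcs1, Hsd17b7, Fads2, Srebf1, Fasn and Thrsp by strain and genotype, with a point per array, numbered by replicate, and a bar at the mean of 3. The Hsd17b7 and Fads2 points of D2 knockout mice lie below all D2 wild-type points, and for Srebf1 arrays D2 KO 2 and 3 (1156 and 1251) stand apart from D2 KO 1 (349.6).

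Beyond the called genes, the role groups differed in sign more than in number of calls in D2 liver. The 5 desaturases and elongases all had a negative difference (median -0.33, from -0.52 to -0.28, 1 called), whereas the 5 genes of fatty acid synthesis all had a positive one (median 0.24, from 0.10 to 0.81, none called). Over all genes the median difference was 0.02 and 53.4% were positive. Fasn, fatty acid synthase, was at 202, 197 and 158 in D2 wild-type and 211, 393 and 297 in D2 knockout liver, and came nearest to a call (0.66 ± 0.19, adjusted p = 0.113). Its D2 groups did not overlap. Thrsp, the thyroid hormone responsive protein of lipogenic tissues, gave 0.81 ± 0.34 (adjusted p = 0.301), and Acly, the ATP citrate lyase that supplies cytosolic acetyl-CoA, gave 0.24 ± 0.13. Acaca and Acacb, the acetyl-CoA carboxylases, gave 0.17 ± 0.21 and 0.10 ± 0.21.

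The negative side in D2 liver was made of Fads2 together with Fads1, the delta-5 desaturase (-0.34 ± 0.12), Scd1, the stearoyl-CoA desaturase (-0.28 ± 0.12), and the elongases Elovl5 (-0.33 ± 0.17) and Elovl6 (-0.28 ± 0.16). Apart from Fads2 none of them was called, with adjusted p values of 0.207 to 0.486. In B6 liver the same 5 genes gave a median of -0.13, with Fads1 at 0.30 ± 0.12 and Elovl6 at 0.12 ± 0.16 positive, and none was called. Elovl5, which extends polyunsaturated fatty acids, was at 5481, 7115 and 5801 in B6 wild-type and 5650.0, 3985 and 3313 in B6 knockout liver, groups that overlapped (-0.53 ± 0.17, adjusted p = 0.236).

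The 6 enzymes from HMG-CoA synthase to farnesyl diphosphate had a median of 0.05 in D2 liver and 0.35 in B6 liver, where 5 of the 6 were positive and 1 was called. Fdps, farnesyl diphosphate synthase, was at 199, 218 and 197 in B6 wild-type and at 425, 241 and 347 in B6 knockout liver, without overlap, and its difference of 0.69 ± 0.23 was not called (adjusted p = 0.25). In D2 liver it was at 416, 360.3 and 457 in wild-type and 384, 829 and 512 in knockout mice. The D2 groups overlapped. The 10 enzymes from squalene synthase onwards had a median of 0.02 in D2 liver (5 positive, 1 called) and -0.09 in B6 liver (2 positive, none called).

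Among the regulators, Srebf1 had the largest difference in both strains without being called in either. It was at 431, 380.1 and 487 in D2 wild-type liver and at 349.6, 1156 and 1251 in D2 knockout liver (0.89 ± 0.33, adjusted p = 0.243). D2 KO 1 was below all 3 wild-type arrays, while the other D2 knockout arrays were far above them. In B6 liver Srebf1 was at 231, 225 and 297 in wild-type and at 374, 420.1 and 419 in knockout mice, with no overlap (0.70 ± 0.33, adjusted p = 0.439). In a fit of the B6 liver arrays alone it was called together with Hmgcs1, so that 2 genes of the list were called there. Srebf1 was also called in B6 liver when D2 KO 1 was left out (0.70 ± 0.12, adjusted p = 0.0153). Insig1, the sterol-sensing anchor of the SREBPs, gave 0.29 ± 0.20 in D2 and 0.32 ± 0.20 in B6 liver, and Mlxipl gave 0.34 ± 0.11 (adjusted p = 0.147) and 0.19 ± 0.11. Srebf2, Insig2, Stard4 and Tmem97 gave differences of -0.05 to 0.12 in D2 liver.

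**Figure D2:**
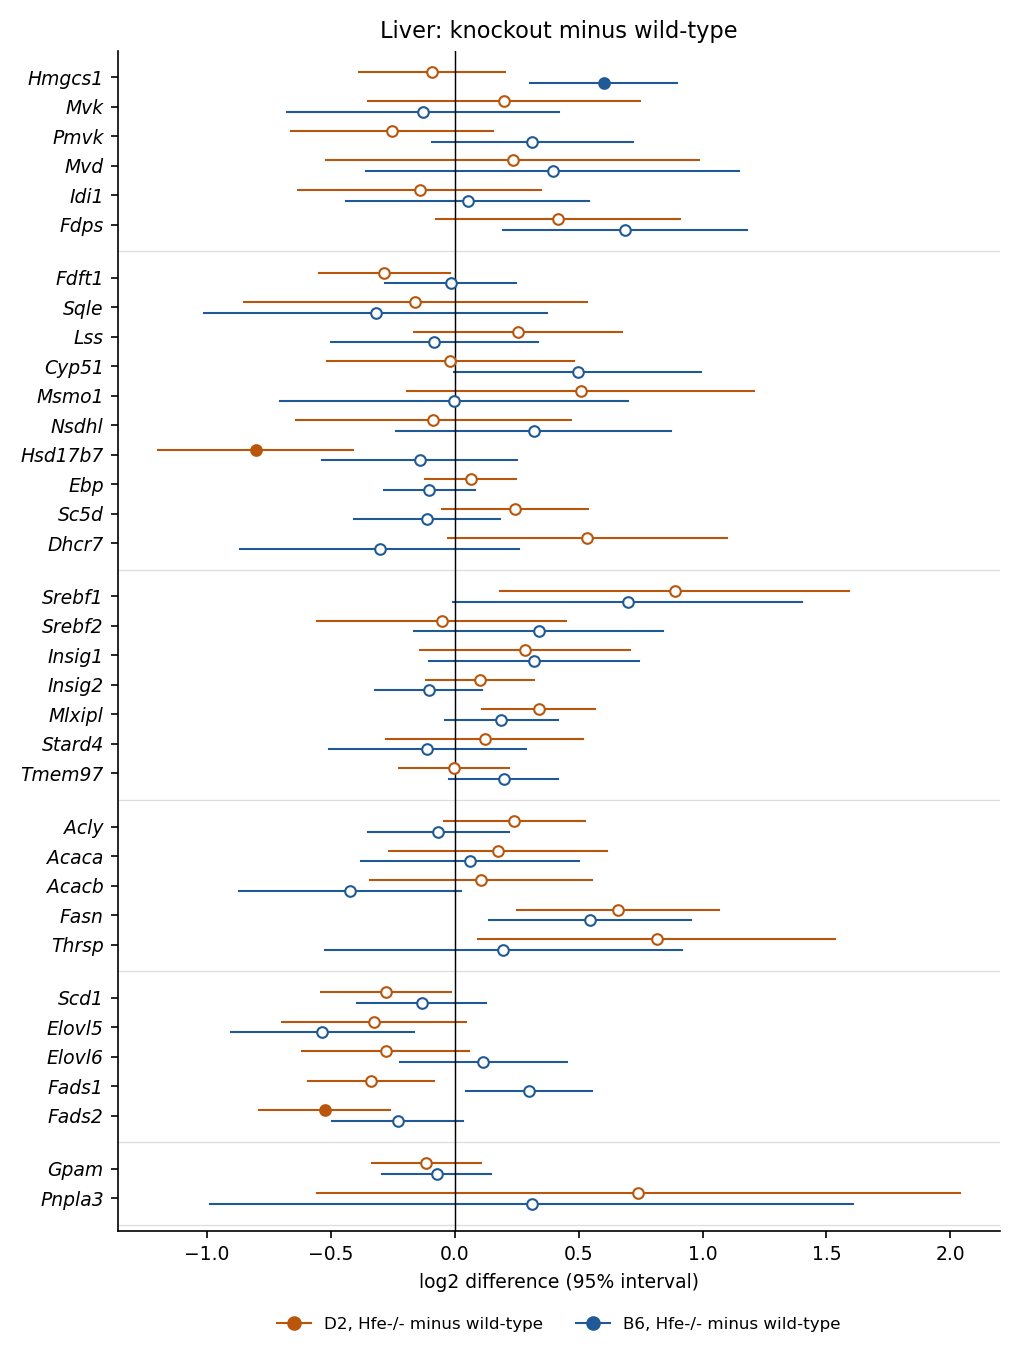
Log2 difference between Hfe-/- and wild-type liver (x axis) of the 35 genes, ordered by role, in D2 (orange) and B6 mice (blue), with 95% intervals from limma. Filled points are the called genes: Hsd17b7 (-0.80) and Fads2 (-0.52) in D2 and Hmgcs1 (0.60) in B6.

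The D2 knockout livers differed among themselves, and the number of genes called turned on which of them were included. Array D2 KO 2 had the highest signal of all 12 liver arrays for 15 of the 35 genes, among them Fdps (829), Msmo1 (1092), Nsdhl (385), Dhcr7 (308), Insig1 (486), Acly (939) and Fasn (393). D2 KO 1 had the highest signal for 1 gene and D2 KO 3 for 3. The mean deviation of the 35 genes from the liver mean was 0.47 in log2 on D2 KO 2, against -0.11 on D2 KO 1 and 0.09 on D2 KO 3, and -0.22 to 0.08 on the other 9 arrays. Without D2 KO 1 the number of genes called in D2 liver went from 2 to 10, of which 8 were higher. These were Srebf1 (1.48 ± 0.13, adjusted p = 1.9e-05), Fasn (0.89 ± 0.17), Thrsp (1.15 ± 0.33), Dhcr7 (0.84 ± 0.24), Insig1 (0.56 ± 0.16), Sc5d (0.45 ± 0.10), Mlxipl (0.44 ± 0.10) and Acly (0.42 ± 0.10), while Hsd17b7 (-0.99 ± 0.18) and Fads2 (-0.69 ± 0.10) remained lower. Over all probe sets, calls went from 773 to 1740 in the same fit. Without D2 KO 2 or without D2 KO 3 no gene of the list was called, nor without D2 WT 1 or D2 WT 2, and 1 was called without D2 WT 3.

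The same omission of D2 KO 1 also moved the interaction, where 3 genes were then called: Srebf1 (0.78 ± 0.18), Sc5d (0.56 ± 0.13) and Fads1 (-0.69 ± 0.18). Over all probe sets the interaction calls went from 60 to 635 in that fit. Fads1 alone was called without B6 KO 3, and Hmgcs1 alone without D2 KO 2. With all arrays Fads1 came nearest to an interaction call (-0.64 ± 0.17, adjusted p = 0.192). It was at 1353, 1444 and 1317 in B6 wild-type, 1858, 1864 and 1387 in B6 knockout, 2369.8, 2607 and 2270.3 in D2 wild-type, and 2042, 2050.5 and 1656 in D2 knockout liver. The B6 knockout mice were higher than B6 wild-type mice on 2 of 3 arrays, whereas all D2 knockout arrays were below all D2 wild-type arrays. In liver, the 8 acinar markers summed to 646, 1228 and 1241 on D2 KO 1, 2 and 3 and to 231 to 475 on the other 9 arrays, nearly all of it from Cela1 (610.4, 1178 and 1147), while the other 7 were at or near background. The part of this in the lipid genes was not tested.

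**Figure D3:**
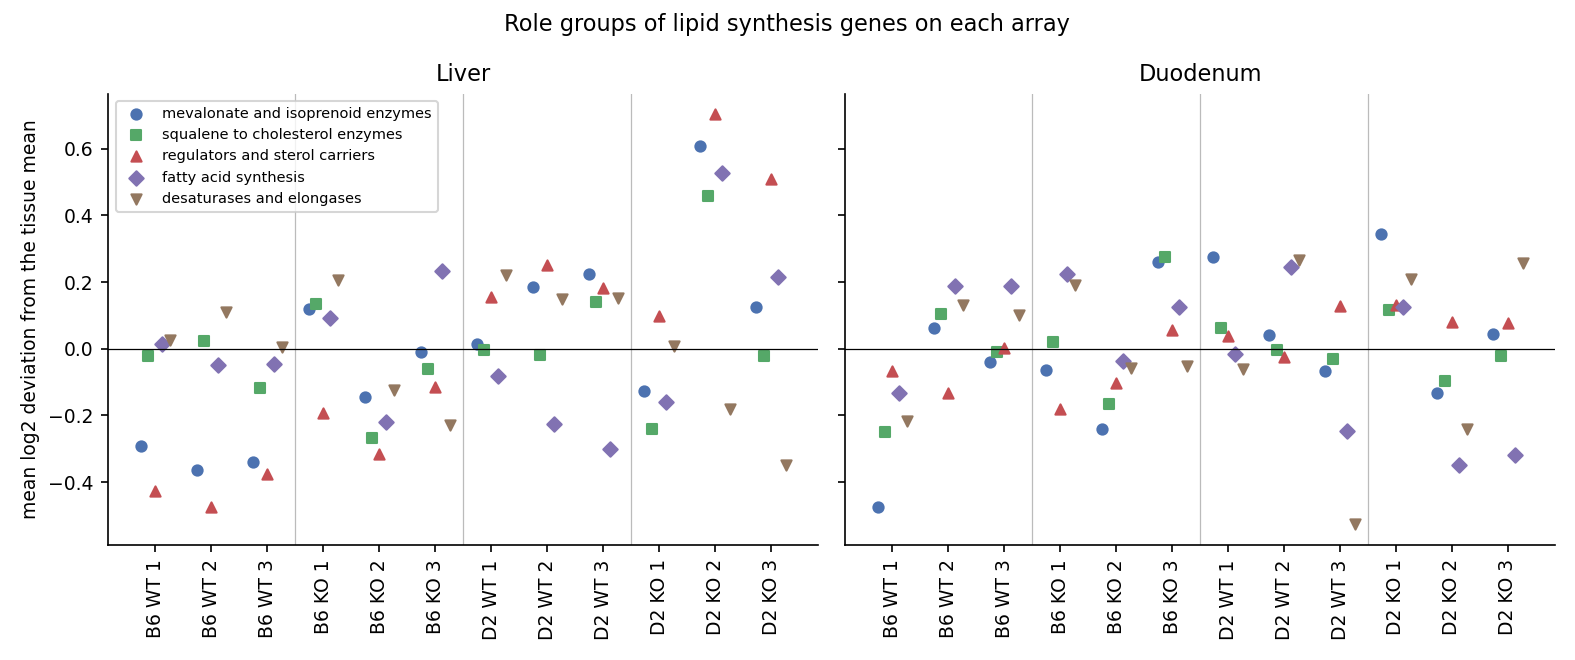
Mean log2 deviation from the mean of the 12 arrays of a tissue (y axis) for 5 role groups on each array (x axis), in liver and in duodenum. On liver array D2 KO 2 the first 4 role groups lie 0.46 to 0.70 above the mean and the desaturases and elongases at -0.18, and on D2 KO 1 the same groups lie between -0.24 and 0.10.

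Other genes of these pathways were read from lists of 14 sterol pathway and 23 lipogenic genes, of which 7 and 20 were tested. In D2 liver 3 lipogenic genes were upregulated and 1 downregulated, and 1 sterol pathway gene was downregulated, where 3.31% of all genes were called, 1.73% higher and 1.58% lower. Pklr, the liver pyruvate kinase that feeds glycolytic carbon to lipogenesis, was at 126, 135 and 132 in D2 wild-type and at 203, 308 and 298 in D2 knockout liver (1.01 ± 0.16, adjusted p = 0.00583). Elovl3, an elongase of very long saturated and monounsaturated fatty acids, was at 2095, 1834 and 2019 against 4363, 5016 and 5254 (1.30 ± 0.25, adjusted p = 0.0219). For both genes all 3 knockout arrays, D2 KO 1 included, lay above all 3 wild-type arrays. Hsd17b12, the ketoacyl-CoA reductase of fatty acid elongation, also rose (0.54 ± 0.11, adjusted p = 0.0295). Tm7sf2, a sterol C14-reductase, fell from 2173, 2056 and 1862 to 1547, 1536 and 1269 (-0.49 ± 0.10, adjusted p = 0.0302), and Elovl2, which extends long polyunsaturated fatty acids, fell by 0.48 ± 0.13 in log2 (adjusted p = 0.096). In B6 liver 1 of the 20 lipogenic genes, the malic enzyme Me1, was upregulated, from 739.6, 718 and 695 to 1699.7, 863 and 1144 (0.73 ± 0.17, adjusted p = 0.0917), and none of the sterol pathway genes was called, against 1.15% of all genes.

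In duodenum no gene of the list was called for the knockout in D2 mice, where 0.486% of all genes were, in B6 mice (0.00772% of all genes) or for the interaction (0.0154% of all genes). At an unadjusted p under 0.05 there were 6, 1 and 5 of the 35 genes, against 1626, 701 and 1356 of all 12956 genes. The smallest adjusted p was 0.297 in D2 (Gpam, the mitochondrial acyltransferase that starts triglyceride synthesis) and 0.873 in B6. In each strain the 95% interval of 31 of the 35 genes lay within 2-fold of no change in both directions, and that of the other 4 reached beyond it. Scd1 was among the least certain, at 69.2, 122 and 17.7 in D2 wild-type and 319, 37.5 and 182 in D2 knockout duodenum (1.29 ± 0.75). Adding the acinar score of each array as a covariate, or leaving out D2 KO 2 and D2 KO 3, both chosen after the values were seen, left these counts at 0. Of the other lipogenic genes, Agpat2, an acyltransferase of phosphatidic acid synthesis, was upregulated in D2 duodenum, from 993, 996 and 981 to 1198, 1351 and 1526 (0.45 ± 0.09, adjusted p = 0.095). Its highest values were on D2 KO 2 and D2 KO 3, which carried least acinar signal, and the part of this in the call was not tested.

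Between the wild-type strains, 5 of the 35 genes differed in liver, against 5.06% of all genes. In D2 mice 4 were higher, against 2.5% of all genes, and 1 was lower, against 2.55%. All 7 regulators and sterol carriers had a higher mean in D2 liver (median 0.65, 2 called), where the median over all genes was 0.02. Tmem97, a sterol-regulated membrane protein linked to cholesterol transport, was at 302, 327 and 317 in B6 and 516, 506 and 466 in D2 wild-type liver (0.65 ± 0.10, adjusted p = 0.000777). Srebf2 was at 35.2, 35.1 and 46.3 in B6 and 82.1, 118 and 67.4 in D2 wild-type liver (1.17 ± 0.24, adjusted p = 0.00493). Neither gene's groups overlapped. The second probe set of Srebf2 gave 0.55 ± 0.24 and was not called. The other 5 of this group were not called, among them Stard4, a sterol carrier of the START family (0.76 ± 0.19, adjusted p = 0.019), and Srebf1 (0.79 ± 0.33). Array D2 KO 1 is not in this comparison but shares its estimate of spread, and without it Srebf1 was called (0.79 ± 0.12, adjusted p = 0.00051). Another of the 3 probe sets of Stard4 was called as higher in D2 liver (0.94 ± 0.16, adjusted p = 0.00109). For Hmgcs1, 1 of the 5 probe sets was called as lower in D2 liver (-0.74 ± 0.14, adjusted p = 0.00373), and it was not the one read here.

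Of the enzymes, Fads1 was at 1353, 1444 and 1317 in B6 wild-type against 2369.8, 2607 and 2270.3 in D2 wild-type liver, a difference of 0.82 ± 0.12 (adjusted p = 0.000385). Its second, dimmer probe set gave -0.40 ± 0.25, and the mean of both gave 0.21 and no call. Fdft1, squalene synthase, was at 610.4, 575 and 503 in B6 and 881, 749.7 and 900.4 in D2 wild-type liver, without overlap (0.58 ± 0.12, adjusted p = 0.0074). Pmvk (0.82 ± 0.19) and Nsdhl (0.99 ± 0.26), of mevalonate phosphorylation and sterol C4-demethylation, and Fdps, at 197 to 218 in B6 and 360.3 to 457 in D2 wild-type liver, had adjusted p values of 0.0123 to 0.0284 and were not called. D2 WT 1, the only D2 wild-type array hybridized with the B6 wild-type arrays, differed from their mean by 0.71 for Tmem97, 1.09 for Srebf2, 0.79 for Fads1 and 0.65 for Fdft1. With the run as a block the number called went from 5 to 3, as it did without B6 WT 1 or without D2 WT 1, and Sc5d, Tmem97 and Fads1 were the 3 in each case.

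Sc5d, the lathosterol 5-desaturase of a late step of cholesterol synthesis, had the largest strain difference of the list in both tissues. In liver it was at 2369.9, 2378 and 2342 in B6 and at 851, 762 and 823 in D2 wild-type mice (-1.54 ± 0.14, or 2.91-fold lower in D2, adjusted p = 3.06e-06). In duodenum it was at 848, 765 and 695 in B6 and at 255, 236 and 219.8 in D2 wild-type mice (-1.70 ± 0.11, or 3.25-fold lower, adjusted p = 1.41e-06). The knockout mice of each strain stayed on their strain's side, at 1967 to 2378 in B6 and 725 to 1193 in D2 liver. The strain difference was seen with 1 of 3 probe sets only. The others gave 0.20 ± 0.15 and -0.17 ± 0.22 in liver and 0.07 ± 0.19 and -0.03 ± 0.38 in duodenum, and with the mean of all 3 the difference was -0.50 in liver and -0.55 in duodenum and was not called. For the knockout in D2 liver, the probe set read here gave 0.24 ± 0.14 and was not called, whereas 1 of the others was called as higher (0.57 ± 0.15, adjusted p = 0.0792).

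In duodenum 2 genes of the list differed between the wild-type strains, 1 in each direction, against 3.33% of all genes (1.34% higher and 1.99% lower in D2). Beside Sc5d this was Nsdhl, at 158, 192 and 199 in B6 and 297, 274 and 264 in D2 wild-type duodenum (0.61 ± 0.13, adjusted p = 0.00985). Its groups did not overlap, yet the call lay just inside the threshold and was lost in 18 of 25 alternatives. Next came Insig2, the second INSIG protein, at 418, 379 and 419.5 in B6 and 540.1, 495 and 660.2 in D2 mice (0.47 ± 0.11, adjusted p = 0.025), and Elovl5, at 287, 256 and 272 in B6 and 379, 386 and 392 in D2 mice (0.51 ± 0.13, adjusted p = 0.0345). Neither was called with these probe sets, although the strains did not overlap in either gene. The second probe set of Elovl5 was called as higher in D2 duodenum (0.67 ± 0.12, adjusted p = 0.00411). All B6 wild-type duodenum arrays were in another hybridization run than all D2 arrays, and only B6 KO 2 and 3 were run with the latter, so that strain and run were largely shared there.

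**Figure D4:**
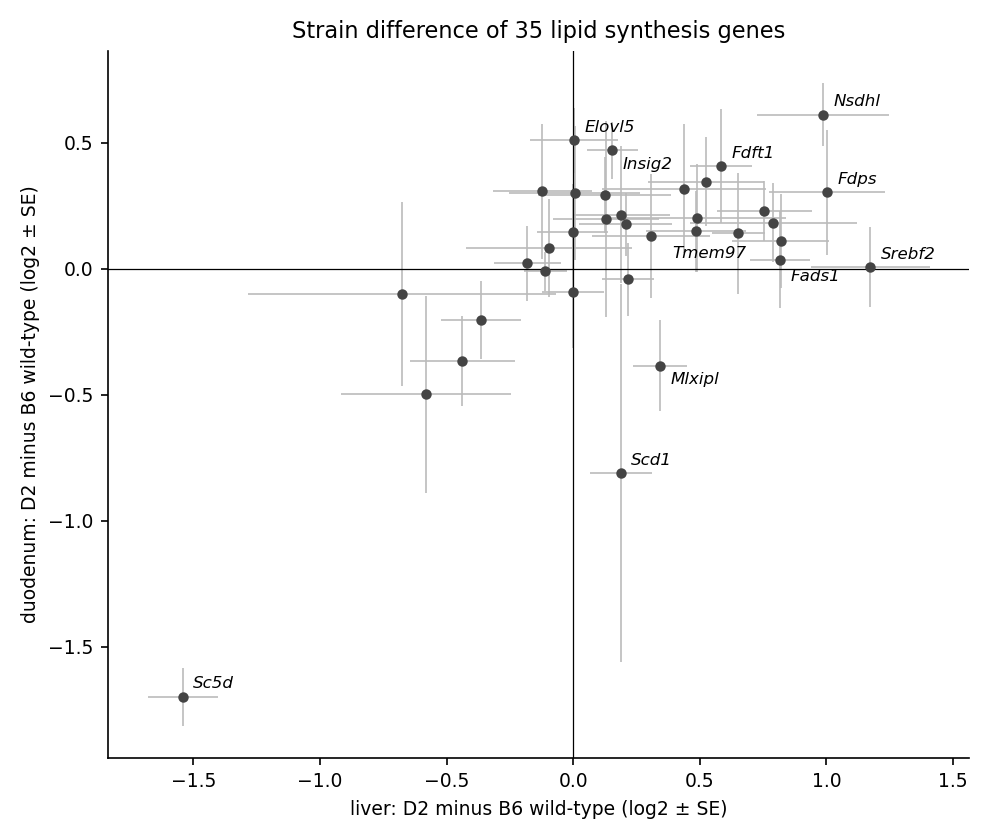
Log2 difference between D2 and B6 wild-type mice of the 35 genes in liver (x axis) and in duodenum (y axis), with standard errors from limma. Sc5d lies far below 0 in both tissues (-1.54 and -1.70), and Srebf2 is higher in D2 in liver (1.17) and near 0 in duodenum (0.01).

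The strain difference was compared between tissues in a fit of all 24 arrays, which treats the liver and duodenum arrays as independent although 12 mice gave both tissues. No gene of the list was called, where 1.37% of all genes were. An unadjusted p under 0.05 was found for 7 of the 35, against 15.8% of all genes. Among the other probe sets, 1 of Stard4 was called (1.08 ± 0.21, adjusted p = 0.00546), while the one read here gave 0.53 ± 0.24. Srebf2 was nearest (1.17 ± 0.28, adjusted p = 0.0292). It was at 142, 120.1 and 148 in B6 and at 120.5, 159 and 134 in D2 wild-type duodenum, so that the strains overlapped there and not in liver. Mlxipl, Fads1 and Pmvk followed, at 0.73 ± 0.22, 0.78 ± 0.24 and 0.71 ± 0.28 (adjusted p of 0.102, 0.103 and 0.237). Mlxipl was at 548, 563 and 508 in B6 and 668, 752 and 637 in D2 wild-type liver, and at 517, 338 and 441 against 368, 260.4 and 361 in duodenum. Pmvk was at 61.1, 99.2 and 77.8 in B6 and 144, 139 and 129 in D2 wild-type liver, and at 71.4, 84.9 and 87.2 against 104.7, 87.4 and 72.6 in duodenum. The strains overlapped in duodenum and not in liver for Pmvk, as for Mlxipl.

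The tissues themselves differed in most genes of the list, in the same fit, which takes no account of the shared mice. In B6 wild-type mice 15 of the 35 genes were higher in liver and 6 higher in duodenum, and in D2 wild-type mice 17 and 6. The background was high, with 51.8% and 51.3% of all genes called. Of all genes 22.3% and 22% were higher in liver, and 29.5% and 29.3% were higher in duodenum. Among the desaturases and elongases 4 of 5 were higher in liver in each strain, with medians of 3.56 and 3.65, whereas the median over all genes was -0.19 and -0.16. Elovl5 was at 5481, 7115 and 5801 in B6 wild-type liver and 287, 256 and 272 in duodenum (4.49 ± 0.16, adjusted p = 1.13e-15). Scd1 was at 10697 to 12512 in B6 wild-type liver and 52.0 to 146 in duodenum (6.98 ± 0.59). Elovl6, which extends palmitate to stearate, was the exception, at 262, 250.3 and 271 in liver and 835, 676 and 992 in duodenum of B6 wild-type mice (-1.66 ± 0.17).

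Gpam was at 1279, 1317 and 1240.4 in B6 wild-type liver and 141, 119.7 and 129.8 in duodenum (3.30 ± 0.12, adjusted p = 1.86e-15). Insig2 was at 3502, 3557 and 3606 in liver against 418, 379 and 419.5 in duodenum (3.13 ± 0.10, adjusted p = 2.81e-16), and Ebp, the sterol isomerase of the late pathway, at 2663, 2579 and 2515 against 790.4, 742 and 787 (1.74 ± 0.07). In D2 wild-type mice Elovl5 was at 5996, 6201 and 6131 in liver and 379, 386 and 392 in duodenum, and Gpam at 1588, 1484 and 1388 against 115, 122 and 143. Insig2 was at 4359, 3896 and 3652 against 540.1, 495 and 660.2, and Ebp at 2417, 2311 and 2457 against 803, 754 and 746. These 4 genes were named for their small adjusted p values. Their D2 differences were 3.99 ± 0.16 for Elovl5, 3.56 ± 0.12 for Gpam, 2.82 ± 0.10 for Insig2 and 1.64 ± 0.07 for Ebp. In fatty acid synthesis Acly, Acaca, Acacb and Thrsp were higher in liver in each strain, by 0.86 to 3.70 in log2, and Fasn was not called in either (0.14 ± 0.26 and 0.12 ± 0.26).

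Apart from Elovl6, the genes called as higher in duodenum were on the sterol side. By the probe sets read, Mvd, Idi1, Sqle (squalene epoxidase), Srebf2 and Stard4 were, besides Elovl6, the 5 called as higher in duodenum in both strains. Their liver minus duodenum difference was -0.63 to -1.82 in log2. With probe sets not read here, 2 of 5 of Hmgcs1 were called as higher in duodenum in both strains. So were 1 of 2 of Cyp51 in D2 and 1 of 2 of Mvk in B6 mice. In D2 mice the Mvd call was lost in 26 of 34 alternatives and the Srebf2 call in 11 of 35. Those of Idi1, Stard4 and Sqle were lost in 5, 4 and 1 of 35. Mvd was at 18.9 to 40.2 in D2 wild-type liver, near the filter, and 1 of its 2 probe sets was called. Sqle was at 40.6, 76.5 and 34.3 in B6 wild-type liver and at 109, 251 and 167 in duodenum, and Idi1, the isopentenyl diphosphate isomerase, at 133, 149 and 192 against 245, 398 and 339. The tissues did not overlap in either gene. For Srebf2 the difference was -1.82 ± 0.20 in B6 and -0.66 ± 0.20 in D2 mice. In the opposite direction within the same pathway, Fdft1, Hsd17b7, Ebp and Sc5d were higher in liver in both strains, by 1.24 to 1.78. In each strain the wild-type liver and duodenum arrays were in different hybridization runs, and with the run as a block 13 genes were called in each.

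**Figure D5:**
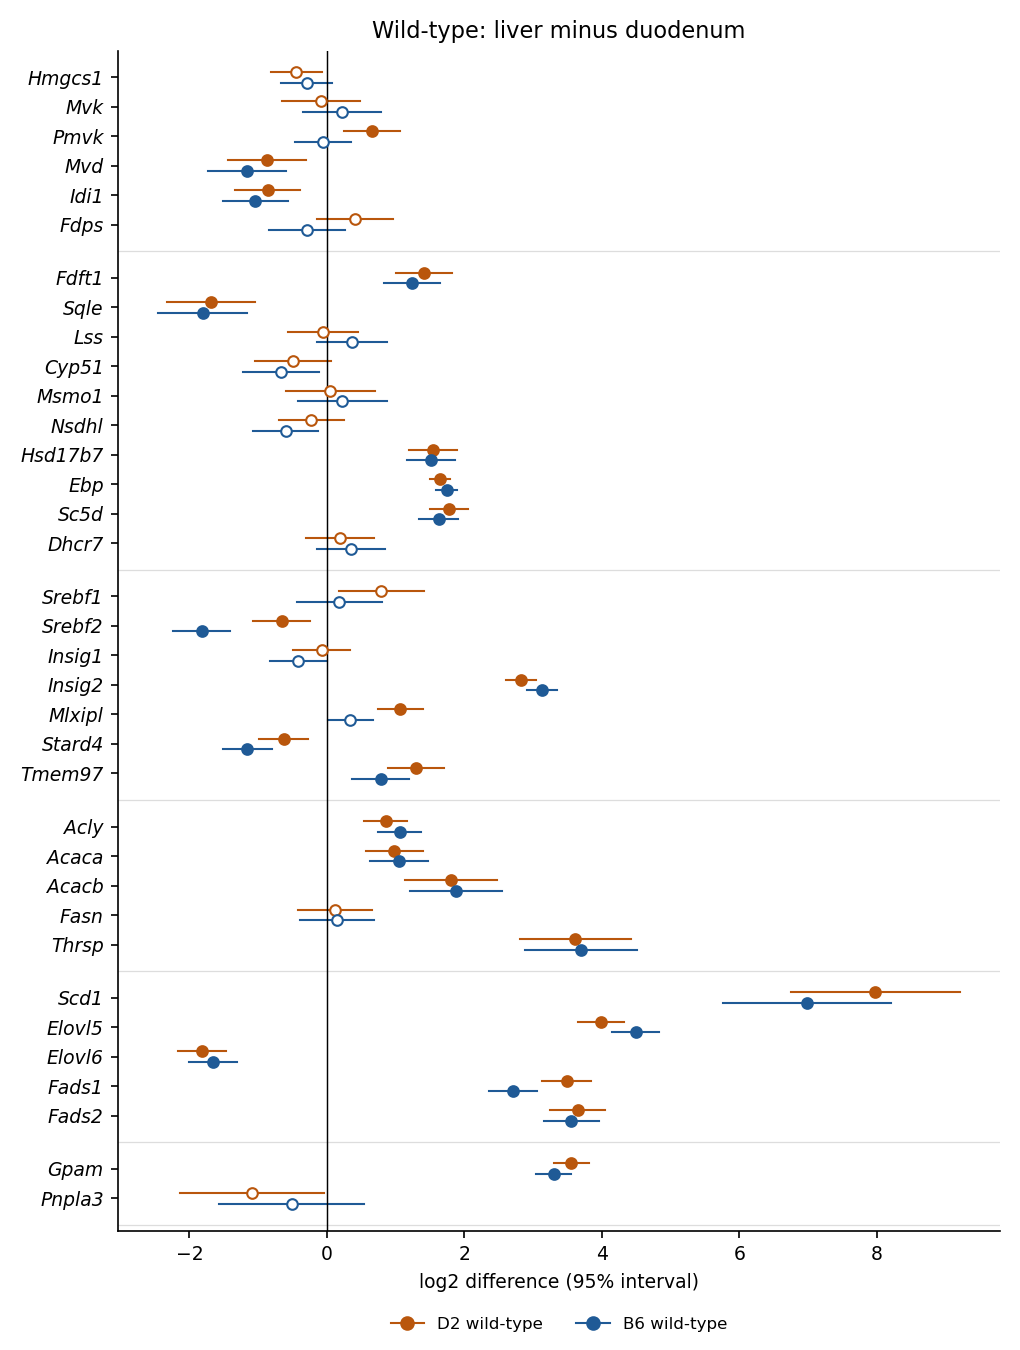
Log2 difference between liver and duodenum of wild-type mice (x axis) of the 35 genes, ordered by role, in D2 (orange) and B6 (blue), with 95% intervals from limma over all 24 arrays and filled points for called genes. Elovl6, Sqle, Srebf2, Mvd, Idi1 and Stard4 lie left of 0 and Scd1, Elovl5, Thrsp, Fads2, Fads1, Gpam and Insig2 far right of it.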

How the data were processed

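RNA from liver and duodenum was hybridized to Affymetrix Mouse Genome 430 2.0 arrays, and the authors deposited MAS5 signals, linear intensity values scaled to a trimmed mean of 100 after removing 2% at each end. The version of the software is not given in the sources used here, and neither detection calls nor the authors' comparison statistics were used. The table held 45101 probe sets, 64 of them controls. Of the rest, 34945 had 1 gene symbol in the platform annotation. Over the whole table, controls included, 932 had several and 9211 had none. Probe sets with a signal of at least 20 on at least 3 arrays of liver or of duodenum were kept (28061).

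From these signals, log2 values were computed with no pseudocount and fitted with limma 3.58.1 in R 4.3.3 (lmFit, eBayes with a trend), in each tissue over its 12 arrays and over all 24 for tissue comparisons. Benjamini-Hochberg adjustment was over all probe sets kept. The exact permutation test of 3 against 3 arrays cannot go below 0.1 and was not used. Within a tissue each array is a separate mouse, so errors measure the spread between mice. By the study's methods 12 mice gave the 24 arrays, but the labels do not say which liver and duodenum arrays share a mouse, so that the fits over both tissues treat them as independent. The number of arrays limits the precision. The 35 genes and the other lists were chosen with earlier results of these data known. All 35 genes may be named, with values per array for those called in a knockout comparison and for the 4 smallest adjusted p values of each strain or tissue comparison, and of each other list up to 4 called genes are named. Hybridization runs were inferred from the hybridization times in the instrument's experiment files, a gap of over 15 minutes between successive arrays starting another run. Promoter windows came from RefSeq (GRCm38.p6), which held 29 of the 35 genes. The fit was tested on simulated data. Alternatives were another log scale, quantile normalization, other filters, thresholds and variance priors, the arrays compared alone, the replicate number or the run as a block, the mean of a gene's probe sets, and each array left out in turn.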

Additional observations from a re-analysis of the deposited data

How the results depend on the processing

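No difference of a called gene changed sign under any alternative. In D2 liver the 2 calls became 4 with a signal of at least 100, 1 at an adjusted p of at most 0.05, with a change of at least 1.5-fold or with the D2 arrays alone, and 0 with no variance trend or with the run as a block. Leaving out 1 array gave 0 to 10 calls there (0 without D2 WT 1, D2 WT 2, D2 KO 2 or D2 KO 3, 1 without D2 WT 3 and 10 without D2 KO 1). In B6 liver the 1 call became 2 with the B6 arrays alone and 0 at 0.05, with no trend, with the run as a block or with the mean of probe sets, and leaving out 1 array gave 0 to 2 (0 without replicate 2 or 3 of the B6 wild-type or B6 knockout arrays or replicate 1 or 2 of the D2 wild-type arrays, Elovl5 in place of Hmgcs1 without B6 KO 1, and 2 without D2 KO 1). The liver interaction had 0 to 3 calls (1 without B6 KO 3 or D2 KO 2, 3 without D2 KO 1). The 5 strain calls in liver became 9 at 0.05 or with the wild-type arrays alone, 1 with no trend, 3 with the run as a block and 2 with the mean of probe sets, and 3 to 8 with 1 array left out (3 without B6 WT 1 or D2 WT 1, 8 without D2 KO 1). The 2 strain calls in duodenum became 4 at 0.05 and 1 with quantile normalization, no filter, the wild-type arrays alone, no trend, the run as a block, the acinar score as a covariate or without duodenum D2 KO 2 and D2 KO 3, the last pair of settings chosen after seeing the data. With 1 array left out there were 1 to 2, and Nsdhl was lost except without B6 KO 2 or D2 KO 1. No knockout or interaction call appeared in duodenum (0 to 0). Of the tissue calls, 21 in B6 and 23 in D2 mice, 13 each were counted with the run as a block, and 21 to 22 and 18 to 24 with 1 array left out. The strain difference between tissues had 1 call at 0.05 (Srebf2) and 0 to 0 with 1 array left out. The causes were not tested.

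Deviations of arrays with the same replicate number correlated at -0.0196 to 0.0505 in liver and -0.203 to 0.116 in duodenum. Between liver and duodenum of the same strain and genotype they correlated at -0.0171 to 0.0329. Such correlations cannot tell whether equal numbers mark a shared mouse. With the replicate number as a block, calls were 2 in D2 liver, 1 in B6 liver, 0 for the liver interaction, 6 for strain in liver, 1 for strain in duodenum, 0 for each duodenum knockout or interaction comparison, 21 for tissue in each strain and 0 for the strain difference between tissues. No detection calls were used, and Pnpla3, at 4.94 to 30.8 in liver, lay around the array median.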
